A study of Mus musculus with 6 samples.

Results

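The genes described here are 6 matrix metalloproteinases, 3 tissue inhibitors of metalloproteinases and the membrane-anchored inhibitor Reck, measured in mouse dermal fibroblasts with and without Et1. They were taken by symbol: a probe set belonged to the group where the platform annotation gave it exactly 1 gene symbol and that symbol was Mmp2, Mmp3, Mmp11, Mmp13, Mmp14, Mmp19, Timp1, Timp2, Timp3 or Reck. This gave 22 probe sets of 10 genes, out of 45037 probe sets and 18193 genes with a single-symbol probe set on the array. Tests were run on probe sets whose mean signal over all arrays reached the median of all probe sets (41.0), and 19 of the 22, from 9 genes, did so. The other 3 probe sets, the only one of Mmp13 and 1 each of Mmp19 and Timp2, are given by their signals alone.

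The study asked how gene expression in dermal fibroblasts differs after exposure to Et1, endothelin-1, a short vasoactive peptide whose receptors couple to G proteins. The Et1 group was 3 cultures given 100 nM synthetic peptide of the human and porcine sequence for 24 h. The control group was 3 cultures grown alike with nothing added. Each culture was read on 1 Affymetrix Mouse430_2 array, which measures RNA by hybridisation to short probes near the 3′ end of transcripts. All 6 cultures were explanted primary cells from the dermis of B6 mice, with sexes mixed, grown in serum-containing medium. The sample labels give an age of 0 to 2 days and passage 6, while the design text gives 0 to 3 days and a split of the cells by passage 5. The labels call the arrays biological replicates but name no animals, so the p-values measure the spread between these arrays, which may in part be technical. RNA came from whole cultures, in which fewer cells of a type and less RNA per cell cannot be told apart.

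Matrix metalloproteinases are zinc-dependent enzymes that are made as inactive precursors and cut collagens, other matrix proteins and many cell-surface proteins once the propeptide is removed. Tissue inhibitors of metalloproteinases bind the active site of the enzymes, and Timp2 also takes part in the cell-surface complex in which Mmp14 activates the precursor of Mmp2. Fibroblasts are a main source of both enzymes and inhibitors in the dermis, where they act in matrix turnover and wound repair.

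The arrays differed in ways the groups did not explain. Before scaling, the 2% trimmed mean signal was 91.7, 129 and 179 on the Et1 arrays and 148, 135 and 166 on the control arrays, and each array was scaled to the geometric mean of 139. The 27 probe sets for the added bacterial control transcripts split the arrays into a set with high spike-in signal (Et1 replicates 1 and 3 and control replicate 3, mean log2 signal 5.43, 4.75 and 5.64) and a set with low spike-in signal (Et1 replicate 2 and control replicates 1 and 2, 3.57, 3.46 and 3.45). Each set holds both groups, so differences are also given within each set and from a fit with the set as a block, an analysis chosen after seeing the data. Vim, an intermediate filament of mesenchymal cells, had scaled signals of 6833 to 10130 on the Et1 arrays and 7824 to 9380 on the control arrays. Vim does not stand for the fibroblast markers, since 7 of the 8 above the filter had a lower Et1 mean and Vim did not. The most negative log2 fold changes were those of Col3a1 (-1.26), Thy1 (-1.18) and Pdgfrb (-1.14). The groups overlapped for Col3a1 and Thy1 and did not overlap for Pdgfrb. The signals of 9 fibroblast marker genes, 8 of them above the filter, were summed over each gene's brightest probe set, and the sum was 14185 to 25992 on the Et1 arrays and 19944 to 33819 on the control arrays. The same sum was 14185 to 20941 in the set with high spike-in signal and 25992 to 33819 in the set with low spike-in signal.

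Lower mean signals on the Et1 arrays were common among these genes, but no probe set passed the test at an adjusted p of 0.05. Of the 19 tested probe sets 16 had a lower mean on the Et1 arrays, where 45.9% of all tested probe sets did. Before adjustment 8 of 19 had a p under 0.05 in the lower direction and 0 in the higher direction, against 6.38% and 5.94% of all tested probe sets. The 19 probe sets are repeat readings of 9 genes. Taken as genes, each by its brightest tested probe set, 6 of 9 had a lower mean, against 5171 of all 11666 genes. At an unadjusted p under 0.05, 1 of 9 was lower and 0 higher, against 6.53% and 6.93% of all genes. The groups overlapped for 9 of 9, against 9423 of all 11666 genes. After Benjamini-Hochberg adjustment over 22519 probe sets limma called 0 of 19, against 0.346% of all tested probe sets, and the smallest adjusted p was 0.242. Mmp2, Mmp14, Timp2 and Timp3 held 14 of the 19 tested probe sets and 14 of the 16 lower means. Reck and Mmp3 held the other lower means. Mmp2, Mmp14, Timp2 and Timp3 were grouped after their lower means were seen, so the sign of their values is given as a description only. Their 14 tested probe sets all had negative log2 fold changes, between -0.90 and -0.22 with a median of -0.63. The median over all tested probe sets was 0.032. Timp1, Mmp3, Mmp11 and Mmp19 had values near or above 0, with intervals that spanned it. Reck had -0.33, as did the brightest Timp2 probe set. The interval of Reck spanned 0, and so did those of some probe sets of Mmp2, Timp2 and Timp3.

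**Figure D1:**
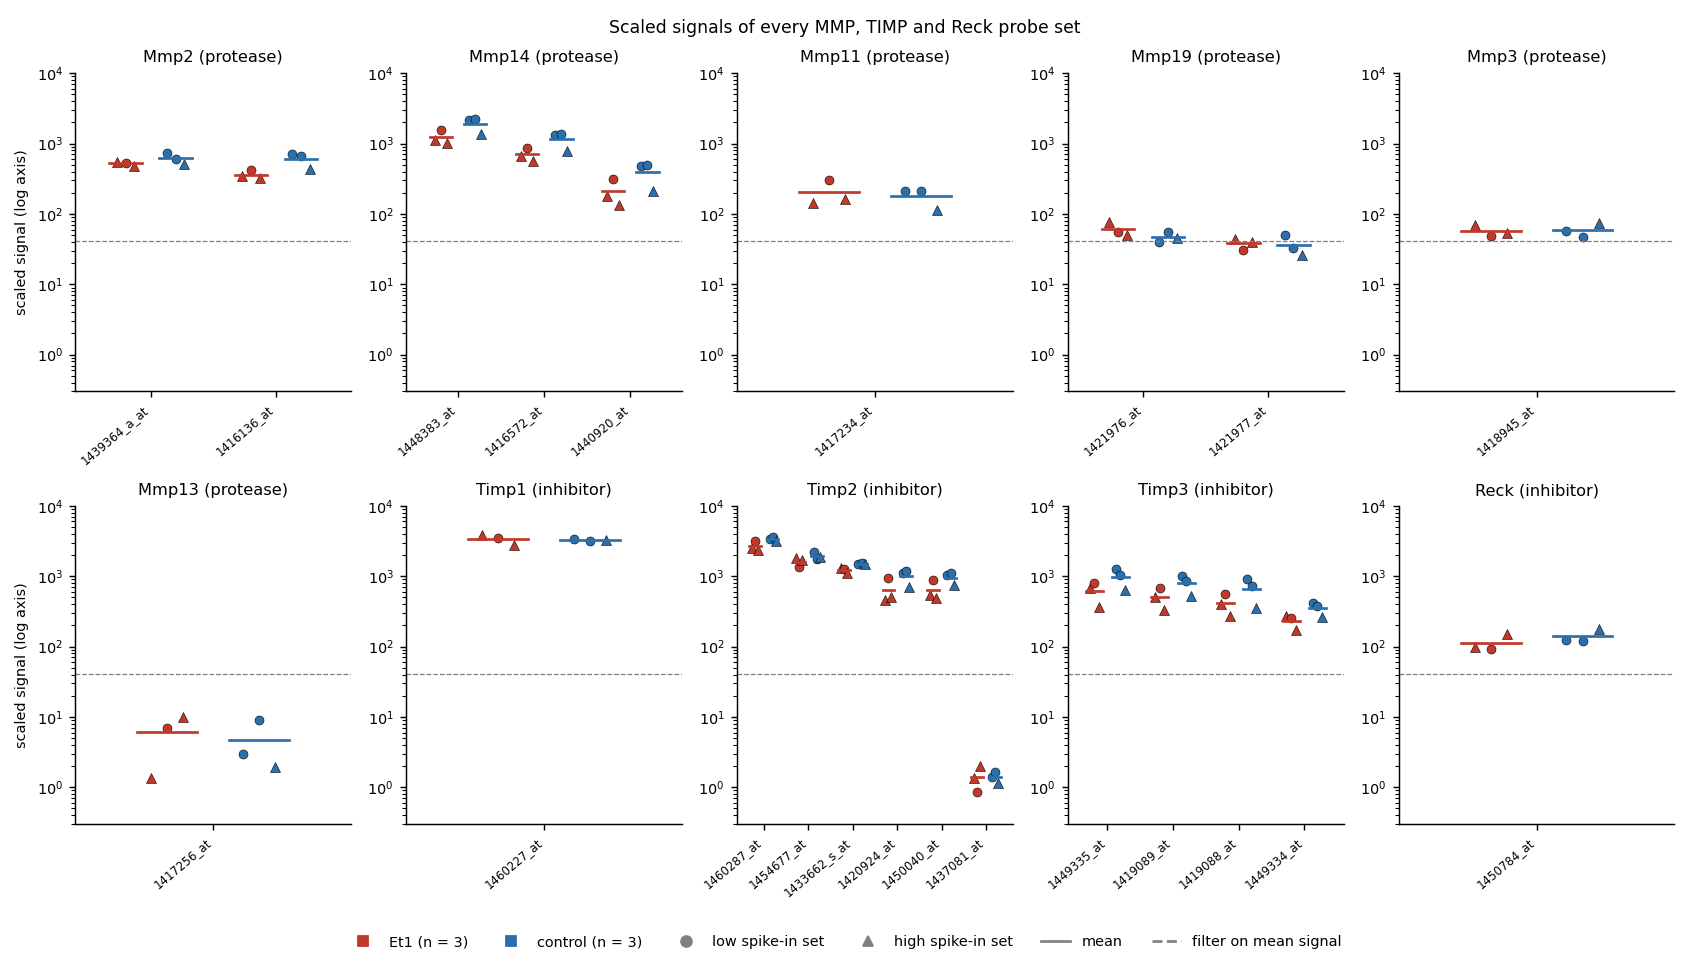
Scaled signal (log axis) of all 22 probe sets, a panel per gene, with Et1 arrays in red left of control arrays in blue, circles for the low and triangles for the high spike-in set, solid lines at group means and the dashed line at the filter of 41.0. Mmp13 lies far below the filter, and on the 3 Mmp14 probe sets the blue triangle lies near the Et1 points.

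Mmp14, the membrane-anchored collagenase, had a lower Et1 mean on all 3 of its probe sets. On the probe set 1448383_at its scaled signal was 1122, 1578 and 1025 on the Et1 arrays and 2196, 2217 and 1361 on the control arrays. Control replicate 3 lay among the Et1 values, below Et1 replicate 2, so the groups overlapped. Its log2 fold change was -0.62 (SE 0.24, 95% interval -1.16 to -0.086), with a limma adjusted p of 0.341. On 1416572_at the signals were 671, 854 and 575 with Et1 and 1324, 1364 and 785 without. Control replicate 3 again lay below Et1 replicate 2, and the log2 fold change was -0.70 (95% interval -1.26 to -0.15, adjusted p in limma 0.292). The last Mmp14 probe set, 1440920_at, had 182, 310.1 and 134 on the Et1 arrays and 475, 495 and 209.8 on the control arrays. Its log2 fold change of -0.90 was the most negative of the 19, with the widest interval of the Mmp14 probe sets, -1.80 to -0.0098 (adjusted p in limma 0.403).

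Mmp14 also differed between the spike-in sets. In the fit that holds both group and spike-in set, the high set was lower than the low set. The log2 differences were -0.63, -0.62 and -1.10 on 1448383_at, 1416572_at and 1440920_at. Within the high set, the Et1 to control difference on 1448383_at was -0.34, and within the low set it was -0.48. Blocked on spike-in set, the log2 fold changes of the 3 probe sets were -0.41, -0.50 and -0.54, with limma adjusted p of 0.0516, 0.0461 and 0.0806. Mmp14 was therefore called lower with Et1 on 1 of its 3 probe sets in that fit. Its group values there were smaller in size than without the block, and smaller than the set differences of the same fit.

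Mmp2, gelatinase A, which cuts denatured collagen and basement membrane collagen, was read by 2 probe sets that differed in size of effect. On 1416136_at the scaled signal was 349.6, 417 and 323 on the Et1 arrays and 706, 661 and 432 on the control arrays. All 3 Et1 values lay below all 3 control values, although the closest pair, Et1 replicate 2 and control replicate 3, was only narrowly apart. Among the 19 probe sets 2 had all Et1 signals below all control signals, against 8.11% of all tested probe sets, and 0 had them all above, against 9.46%. The means were 363 ± 48.1 with Et1 and 599.8 ± 147 in control (SD, n = 3 each). The log2 fold change was -0.70 (SE 0.21, 95% interval -1.19 to -0.21), and its limma adjusted p of 0.242 was the smallest of the group. Blocked on spike-in set, it was -0.54 with an adjusted p of 0.0382, from -0.71 among the low spike-in arrays and -0.36 among the high ones.

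The second Mmp2 probe set, 1439364_a_at, had 553, 537 and 485 on the Et1 arrays and 737, 603 and 516 on the control arrays. The Et1 values were the lower ones on average, but control replicate 3 fell between them. The log2 fold change was -0.22 (95% interval -0.61 to 0.16, adjusted p in limma 0.632), and the value was -0.31 among low spike-in arrays and 0.0039 among high ones. Of the 2 probe sets, both gave a negative value and only 1416136_at a call with the spike-in block.

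Among the 19 probe sets the fit with the spike-in block called 2, Mmp2 1416136_at and Mmp14 1416572_at, both lower with Et1, against 2.47% of all tested probe sets called lower and 1.39% called higher. A lower value within both spike-in sets was found for 15 of 19, against 29.2% of all tested probe sets. In the fit with the spike-in block, a lower value in the high than in the low set was also found for 15 of 19, against 47.7% of all tested probe sets. Taken as genes, each by its brightest tested probe set, the blocked fit called 0 of 9, against 521 of all 11666 genes. A lower value within both sets was found for 5 of 9, against 3355 of 11666. A lower value in the high set was found for 6 of 9, against 5297 of 11666. The part of that array difference in the lower means with Et1 was measured only through these within-set values and the block.

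**Figure D2:**
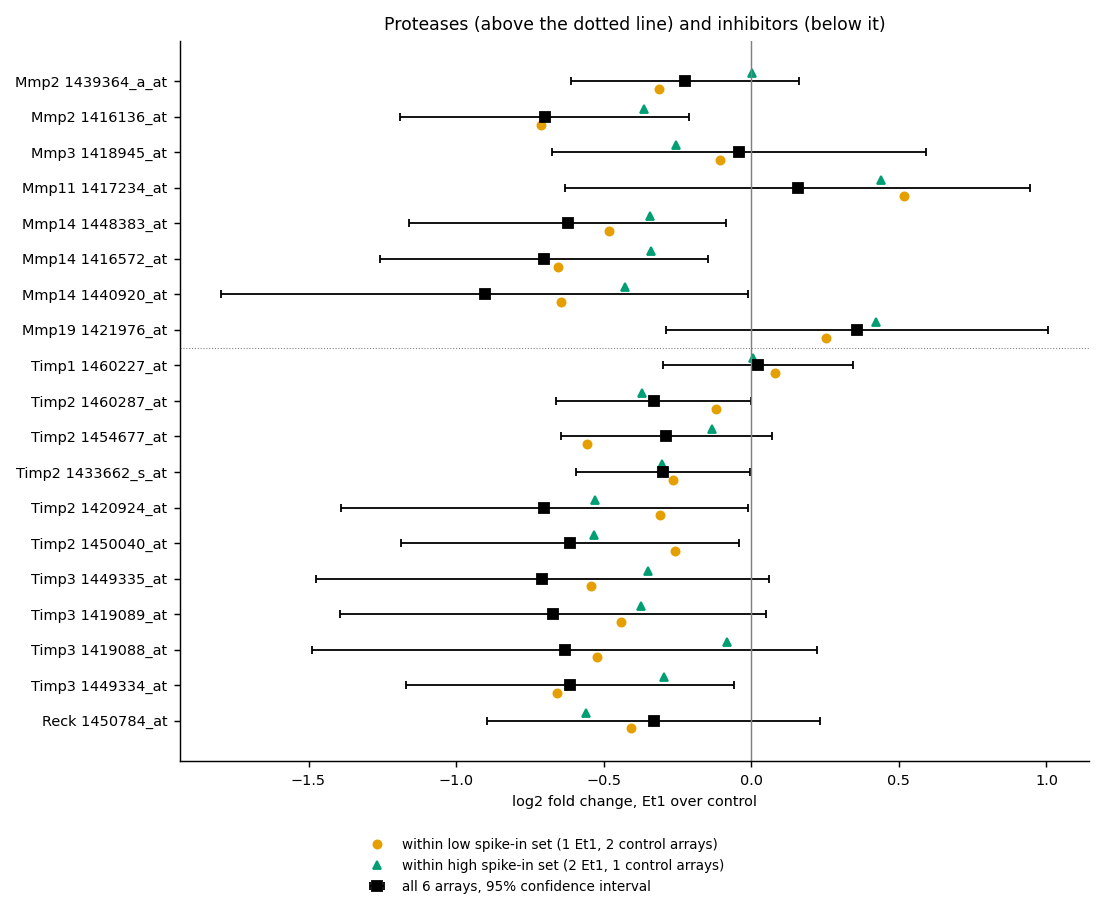
Log2 fold change of Et1 over control for the 19 tested probe sets, with squares and 95% intervals from all 6 arrays, circles for the difference within the low spike-in set and triangles for that within the high set. The 14 squares of Mmp2, Mmp14, Timp2 and Timp3 lie between -0.90 and -0.22, while those of Mmp11, Mmp19 and Timp1 lie above 0, which for Mmp11 and Timp1 turned below 0 with no scaling and for Timp1 also with median centring.

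Mmp11, stromelysin-3, is unusual among secreted family members in that furin removes its propeptide before it leaves the cell. Its probe set 1417234_at had 141, 307 and 165 on the Et1 arrays and 213, 215 and 113 on the control arrays. Et1 replicate 2 was the highest array and control replicate 3 the lowest, and the groups overlapped. Mmp11 had a log2 fold change of 0.16 (95% interval -0.63 to 0.94, adjusted p in limma 0.885). Within the spike-in sets it was larger, 0.52 in the low set and 0.44 in the high set, and blocked on spike-in set it was 0.48 with an adjusted p of 0.0904. Mmp11, like Mmp19, had positive values within both sets, though with no scaling of the arrays its value over all 6 was -0.060, and it passed the test in neither fit.

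Mmp19, a metalloproteinase of broad substrate range, was near the filter. On 1421976_at it had 75.65, 55.8 and 50.5 with Et1 and 39.8, 55.1 and 46.2 without, overlapping groups with a log2 fold change of 0.36 (95% interval -0.29 to 1.01, adjusted p in limma 0.649). Its other probe set, 1421977_at, was below the filter, at 43.9, 30.9 and 40.3 on the Et1 arrays and 51.0, 32.5 and 25.9 on the control arrays. Both probe sets were dim, so a small difference in background weighs on their ratios.

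Mmp3, stromelysin-1, which cuts a wide range of matrix proteins and activates other precursors, had 69.9, 48.5 and 54.1 on the Et1 arrays and 57.4, 47.6 and 73.4 on the control arrays of 1418945_at. The groups lay over one another, and the log2 fold change was -0.042 (95% interval -0.67 to 0.59, adjusted p in limma 0.967). Mmp13, the main interstitial collagenase of the mouse, was below the filter on its single probe set 1417256_at, with 1.36, 6.87 and 10.1 on the Et1 arrays and 3.00, 9.10 and 1.92 on the control arrays. These signals are far below the filter and show no order between Et1 and control arrays.

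Of the inhibitors, Timp1, a secreted protein that blocks most soluble family members, had nearly the same mean in both groups. Its probe set 1460227_at had 3822, 3501 and 2792 on the Et1 arrays and 3415, 3213 and 3253 on the control arrays. The Et1 arrays held both the highest and the lowest value, and the means were 3372 ± 527 with Et1 and 3294 ± 107 in control (SD, n = 3 each). Timp1 had a log2 fold change of 0.022 (95% interval -0.30 to 0.34, adjusted p in limma 0.966), and it was 0.080 among low and 0.0062 among high spike-in arrays. The sign of the Timp1 value turned with the scaling, to -0.030 with median centring and -0.20 with no scaling.

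Timp2, the inhibitor that also serves the activation of Mmp2, had a lower Et1 mean on all 5 tested probe sets, by log2 values of -0.70 to -0.29. On the brightest, 1460287_at, the scaled signal was 2553, 3182 and 2331 on the Et1 arrays and 3344, 3566 and 3153 on the control arrays. Et1 replicate 2 lay just above control replicate 3, and the log2 fold change was -0.33 (95% interval -0.66 to 0.00028, adjusted p in limma 0.406). On 1433662_s_at the Et1 arrays had 1314, 1265 and 1110.2 and the control arrays 1481, 1558 and 1489. That probe set was the other of the group in which all Et1 values lay below all control values, with means of 1229 ± 106 with Et1 and 1509 ± 42.1 in control (SD, n = 3 each). Its log2 fold change was -0.30 (95% interval -0.59 to -0.0044, adjusted p in limma 0.403).

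The other Timp2 probe sets differed from these in spread more than in sign. On 1454677_at the signals were 1793, 1331 and 1685 with Et1 and 2176, 1764 and 1905 without, a log2 fold change of -0.29 (adjusted p in limma 0.508). The probe sets 1420924_at and 1450040_at gave -0.70 and -0.61 (adjusted p in limma 0.401 and 0.377). On 1420924_at the Et1 arrays had 464, 932 and 499 and the control arrays 1122, 1190.3 and 695, so that Et1 replicate 2 stood above control replicate 3, as in Mmp14. The last, 1437081_at, was far below the filter, between 0.858 and 2.01 on the Et1 arrays and between 1.17 and 1.64 on the control arrays. The Timp2 probe sets therefore fell into a pair with larger differences and wide spread and a trio with smaller differences.

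Timp3, which stays bound to the extracellular matrix and also blocks several membrane-bound ADAM proteases, had a lower Et1 mean on all 4 probe sets, by log2 values of -0.71 to -0.61. On the brightest, 1449335_at, the Et1 arrays had 669.8, 794 and 364 and the control arrays 1273, 1055 and 629. Control replicate 3 lay below Et1 replicates 1 and 2, and Et1 replicate 3 was the lowest array. Timp3 had a log2 fold change of -0.71 here (SE 0.34, 95% interval -1.48 to 0.060, adjusted p in limma 0.443). It was -0.54 within the low and -0.35 within the high spike-in set, and -0.45 with the set as a block (adjusted p 0.294). In the fit with the block the high set was lower than the low set by -0.78 on the log2 scale on this probe set.

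The other 3 Timp3 probe sets were close in size of effect. On 1419089_at the signals were 506, 689 and 327 with Et1 and 1016, 863 and 526 without, a log2 fold change of -0.67 (adjusted p in limma 0.437). On 1419088_at they were 400.0, 564 and 273 with Et1 and 916, 716 and 350.1 without, -0.63 on the log2 scale (adjusted p in limma 0.541). On both, control replicate 1 was the highest array and Et1 replicate 3 the lowest, and control replicate 3 lay among the Et1 values. On 1449334_at they were 273, 252 and 169 with Et1 and 420.0, 375 and 264 without, with control replicate 3 just below Et1 replicate 1 and a log2 fold change of -0.61 (adjusted p in limma 0.362).

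Reck, a membrane-anchored inhibitor of several metalloproteinases, had 97.5, 92.6 and 150.0 on the Et1 arrays and 125, 121 and 178 on the control arrays of 1450784_at. Et1 replicates 1 and 2 were the lowest arrays, while Et1 replicate 3 lay above control replicates 1 and 2, so the groups overlapped. The log2 fold change was -0.33 (95% interval -0.90 to 0.23, adjusted p in limma 0.629), and blocked on spike-in set it was -0.48 (adjusted p 0.226). Reck differed from Mmp14 and Timp3 in the direction of the array difference: in the blocked fit the high spike-in set was higher than the low set, by 0.46 on the log2 scale.

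The order of single arrays was alike across Mmp2, Mmp14, Timp2 and Timp3. Et1 replicate 3 was the lowest array on 12 of their 14 tested probe sets, and Et1 replicate 1 on 1. Control replicate 1 or 2 was the highest on 14 of 14. Over all tested probe sets these shares were 16.4%, 16.6% and 29.5%. The 4 genes were grouped after their lower means were seen, so their counts are not comparable with the shares over all probe sets. On Mmp14 and Timp3 control replicate 3, which has high spike-in signal, was the lowest of the control arrays on every probe set.

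**Figure D3:**
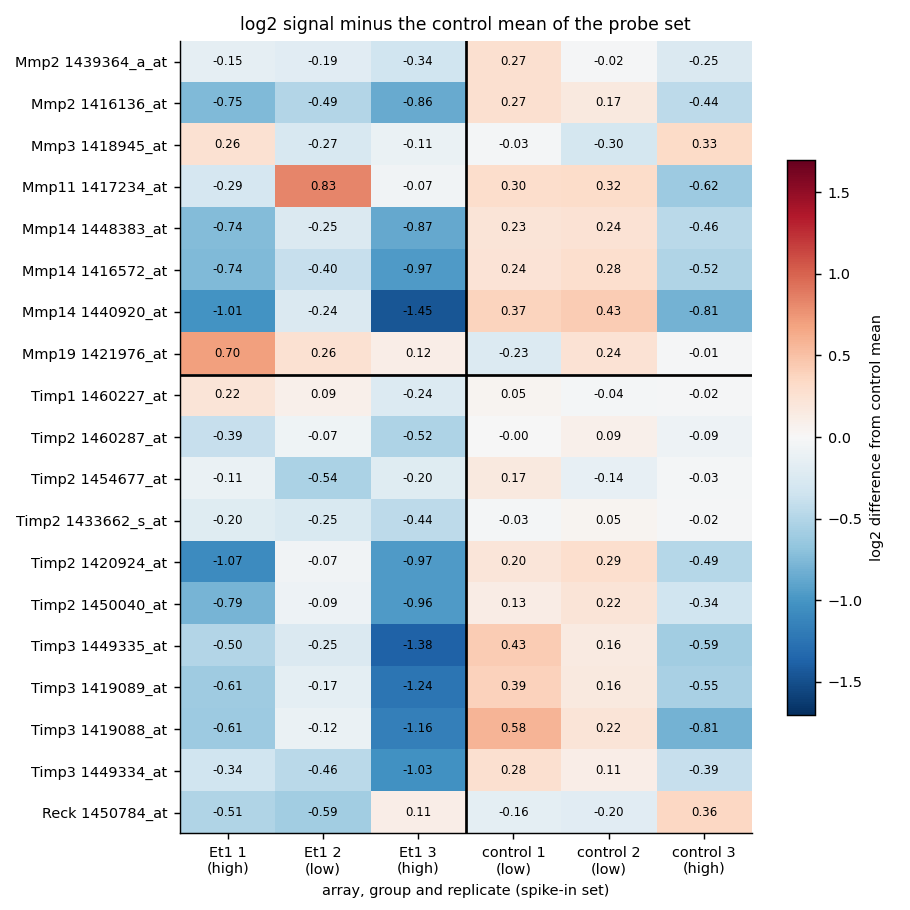
Heat map of the 19 tested probe sets (down the page, proteases above the line) on the 6 arrays (across, Et1 left of control), where colour and number give the log2 signal minus the control mean of that probe set. Mmp14 and Timp3 are below 0 on all 3 Et1 arrays and on control replicate 3, while Timp1 lies between -0.24 and 0.22 on every array.

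Proteases were also set against inhibitors, each gene by its brightest tested probe set. The median log2 fold change was -0.042 over the 5 tested proteases and -0.33 over the 4 inhibitors, against 0.046 over 11666 genes chosen alike. Blocked on spike-in set, these medians were -0.15 and -0.35. The protease median of -0.042 is the value of Mmp3, a dim probe set with a mean signal of 58.5. With a filter at the 75th percentile, which leaves out Mmp3, Mmp19 and Reck, the medians were -0.22 for proteases and -0.33 for inhibitors. Over all probe sets the medians were -0.42 for 8 of proteases and -0.61 for 11 of inhibitors, since the brightest Mmp2 probe set is that with -0.22 and Mmp14 and Timp3 have several. The log2 ratio of each protease to each inhibitor was then formed within every array and centred on the control mean, which gave 20 pairs that share probe sets and were not tested. The ratio of Mmp14 to Timp1 was lower with Et1 by a log2 difference of -0.64, at -0.96, -0.34 and -0.64 on the Et1 arrays and 0.17, 0.27 and -0.45 on the control arrays. Control replicate 3 lay between the Et1 values. The ratio of Mmp14 to Timp2 differed by -0.29 and that of Mmp14 to Timp3 by 0.085, both with overlapping groups. The ratio of Mmp2 to Timp2 differed by 0.11 and that of Mmp2 to Timp3 by 0.48, again with overlap.

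All Et1 ratios lay above all control ratios for 2 of the 20 pairs. Among single probe sets 9.46% had all Et1 signals above all control signals, but that share is not one of ratios. The pairs share probe sets and no share over other gene pairs was computed, so the 2 pairs are given as values only. The ratio of Mmp11 to Timp3 was 0.21, 1.08 and 1.31 on the Et1 arrays and -0.13, 0.16 and -0.030 on the control arrays, a difference of 0.86. The ratio of Mmp19 to Timp2 was 1.09, 0.33 and 0.64 on the Et1 arrays and -0.23, 0.15 and 0.074 on the control arrays, a difference of 0.69. Both join a protease with a higher mean to an inhibitor with a lower mean, and the Mmp19 signal is dim.

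**Figure D4:**
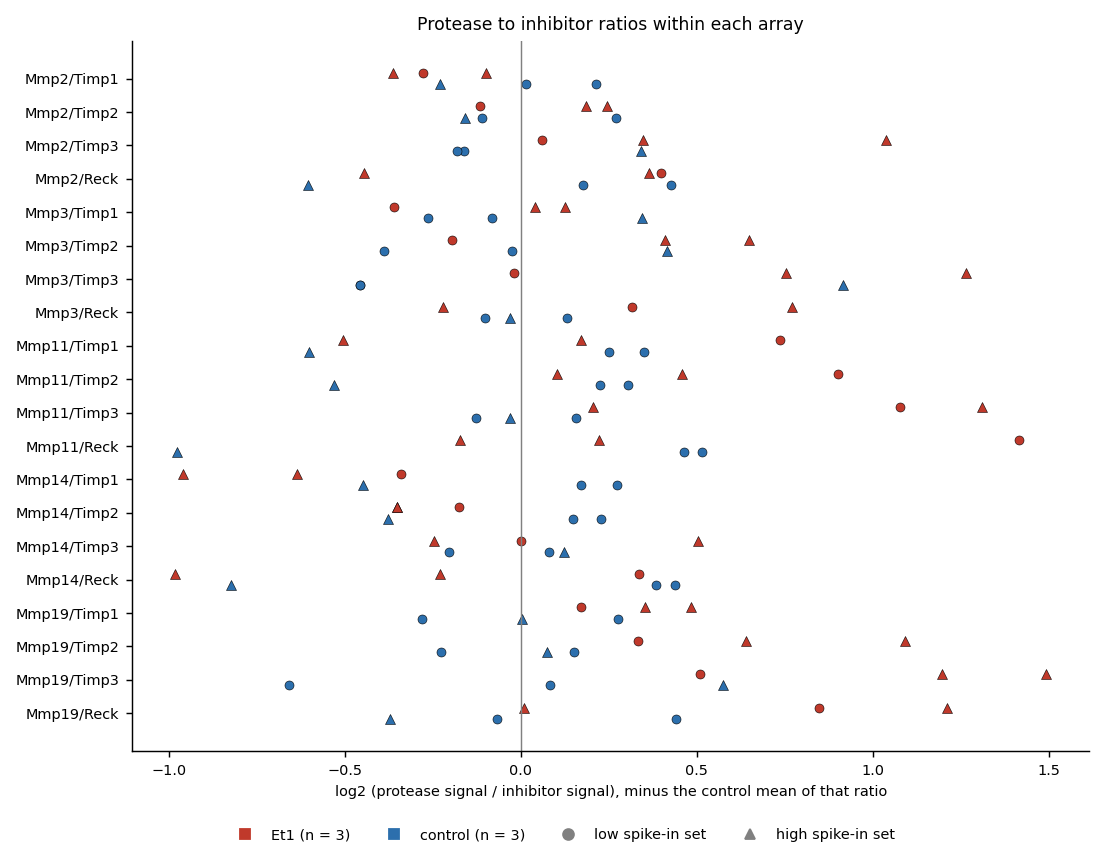
Log2 ratio of each protease to each inhibitor on each array, minus the control mean of that ratio, for 20 pairs, with Et1 arrays in red above control arrays in blue, circles for the low and triangles for the high spike-in set. The groups stand apart for Mmp11 to Timp3 and for Mmp19 to Timp2 and overlap for the other 18 pairs.

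Promoter sequence is shown for the genes with the largest groups of lower probe sets (Mmp14, Timp2 and Timp3), for Timp1, whose mean was nearly equal, and for Mmp13, which was below the filter, so that the presence of common promoter motifs can be compared. RefSeq sequences on GRCm38.p6, from 250 bases before to 50 bases after the transcript start, were found for 8 of the 10 genes. Capitals mark the AP-1 motif TGANTCA, the GC box GGGCGG or its reverse CCGCCC, and the TATA box TATAAA or its reverse TTTATA, searched on both strands.
Mmp14, chr14:54431348-54431647, plus strand: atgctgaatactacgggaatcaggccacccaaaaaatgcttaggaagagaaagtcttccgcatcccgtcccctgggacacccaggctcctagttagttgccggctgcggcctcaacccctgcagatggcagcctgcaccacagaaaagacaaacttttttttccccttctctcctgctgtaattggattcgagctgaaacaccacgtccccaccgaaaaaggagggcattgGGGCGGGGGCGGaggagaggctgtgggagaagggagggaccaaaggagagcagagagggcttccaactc
Timp2, chr11:118355362-118355661, minus strand: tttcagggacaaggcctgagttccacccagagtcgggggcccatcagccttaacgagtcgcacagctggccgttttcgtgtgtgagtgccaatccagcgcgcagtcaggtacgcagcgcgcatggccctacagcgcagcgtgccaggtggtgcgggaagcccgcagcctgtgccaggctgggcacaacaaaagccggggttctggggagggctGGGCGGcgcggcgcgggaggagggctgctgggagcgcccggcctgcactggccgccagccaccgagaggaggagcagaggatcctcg
Timp3, chr10:86300162-86300461, plus strand: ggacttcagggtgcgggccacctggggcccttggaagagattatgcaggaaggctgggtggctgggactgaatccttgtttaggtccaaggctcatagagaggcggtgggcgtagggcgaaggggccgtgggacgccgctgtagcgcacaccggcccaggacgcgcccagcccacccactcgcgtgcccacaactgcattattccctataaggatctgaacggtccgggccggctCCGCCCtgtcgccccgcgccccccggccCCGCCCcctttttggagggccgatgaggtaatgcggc
Timp1, chrX:20869916-20870215, plus strand: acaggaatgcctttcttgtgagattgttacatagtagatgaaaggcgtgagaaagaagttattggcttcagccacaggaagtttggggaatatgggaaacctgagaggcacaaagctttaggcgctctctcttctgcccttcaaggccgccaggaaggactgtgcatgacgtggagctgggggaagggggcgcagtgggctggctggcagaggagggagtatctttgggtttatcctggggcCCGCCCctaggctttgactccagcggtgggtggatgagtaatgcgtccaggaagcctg
Mmp13, chr9:7272264-7272563, plus strand: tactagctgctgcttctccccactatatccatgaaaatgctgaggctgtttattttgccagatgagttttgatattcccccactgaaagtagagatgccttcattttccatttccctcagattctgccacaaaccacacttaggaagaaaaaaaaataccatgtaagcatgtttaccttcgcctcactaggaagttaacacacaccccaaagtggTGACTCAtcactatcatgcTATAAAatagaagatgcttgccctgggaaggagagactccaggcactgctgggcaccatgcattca
The AP-1 motif was found in Mmp13, starting at base -35 from the transcript start, and in Mmp3, and in none of the other 6 sequences. The same 2 genes held the TATA box. The GC box was found 2 times in Mmp14 and in Timp3, 1 time in Timp1 and in Timp2, 3 times in Reck and 4 times in Mmp11. Among 32851 mouse promoters of the same length 7.81% held the AP-1 motif, 35.7% the GC box and 13.6% the TATA box. Mmp14, Timp2, Timp3 and Timp1 all held the GC box and neither other motif, and a match or its absence describes these letters only.

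The genes with signals most like those of 3 member probe sets were looked up by Pearson correlation of log2 signal over the 6 arrays, which share the groups and the spike-in sets, so the values are given as a description. For Mmp2 1416136_at they were Synpo and Il4ra (both r = 0.997) and Fzd1 (0.994). For Mmp14 1448383_at they were Gltp (1.00), Jak1 and Asxl1 (both 0.998). For Timp1 they were Reg3d (0.994), Ubn2 (0.989) and Cbs (0.983).

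The remaining family members gave 6 tested genes of 13 annotated, each by its brightest probe set, and 0 were called, against 0.411% of all genes. Before adjustment 2 were lower and 1 higher, against 6.53% and 6.93% of all genes. Mmp23, a membrane-anchored member with an unusual C-terminal end, had 198, 212 and 169 on the Et1 arrays and 419, 327 and 302 on the control arrays of 1417282_at. The groups did not overlap, and the log2 fold change was -0.85 (adjusted p in limma 0.110). The other Mmp23 probe set, 1417281_a_at, gave -1.10 (adjusted p 0.0776), and blocked on spike-in set both were called, with adjusted p of 0.0197 and 0.0199. Mmp9, gelatinase B, stood on the other side, at 185, 179.6 and 171 with Et1 and 135, 138 and 133 without, a log2 fold change of 0.40 with no overlap (adjusted p in limma 0.334). Its second probe set, with overlapping groups, gave 0.31. Mmp17 and Mmp10 had log2 fold changes of -0.48 and -0.42 (adjusted p in limma 0.332 and 0.743). Mmp1a, Mmp1b, Mmp7, Mmp8, Mmp12, Mmp20 and Timp4 were below the filter.

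Genes that activate, inhibit or clear these enzymes, or that are related proteases, were read in the same way, from lists chosen with earlier results known. Of 16 tested genes of activation and clearance 0 were called, 5 were lower and 1 higher before adjustment, against 6.53% and 6.93% of all genes, and the median log2 fold change was -0.28. Thbs1, thrombospondin-1, a matrix protein that binds metalloproteinases, had 4718, 5898 and 3471 on the Et1 arrays and 8414, 8573 and 6246 on the control arrays. The groups did not overlap, and the log2 fold change was -0.74 (adjusted p in limma 0.201). Plat, tissue plasminogen activator, had -0.83 (adjusted p in limma 0.225), Thbs2, whose protein takes part in Mmp2 clearance, had -0.60 (0.317) on its brightest probe set, and the cathepsin inhibitor Cst3 had -0.43 (0.308). The other Thbs2 probe sets gave -1.07 and -1.05 with no overlap (adjusted p in limma 0.0800 and 0.123). In the fit with the spike-in block those 2 probe sets were called (adjusted p 0.0104 and 0.0334), as was Cst3 (0.0196), while the brightest Thbs2 probe set was not (0.160). By brightest probe set that fit called 1 of the 16 genes, against 521 of all 11666 genes.

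Of 11 tested ADAM and ADAMTS proteases, relatives that shed cell-surface proteins or cut proteoglycans, 0 were called, 3 were lower and 0 higher before adjustment, against 6.53% and 6.93% of all genes, and the median was -0.23. Adamts5, an aggrecan-cutting enzyme, had 122, 132 and 109 on the Et1 arrays and 523, 383 and 229 on the control arrays. The groups did not overlap, and the log2 fold change of -1.56 had a limma adjusted p of 0.0701, which was 0.00642 blocked on spike-in set. Adam12, which sheds growth factor precursors, had 518, 466 and 421 on the Et1 arrays and 916, 822 and 771 on the control arrays, a log2 fold change of -0.84 (adjusted p in limma 0.0694). Adamts1 had -0.78 (0.0792) and Adam15 -0.51 (0.540). The spike-in block called Adam12 (adjusted p 0.00733) and Adamts1 (0.00993) lower as well, which with Adamts5 made 3 of the 11. Over all genes that fit called 521 of 11666 in either direction.

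Transcription factors known to act on metalloproteinase promoters gave 13 tested genes, of which 0 were called, 2 were lower and 1 higher before adjustment, against 6.53% and 6.93% of all genes, with a median of -0.054. Fos, a subunit of AP-1, had 97.7, 70.8 and 76.0 on the Et1 arrays and 249.5, 149.6 and 169 on the control arrays. The groups did not overlap, and the log2 fold change was -1.19 (adjusted p in limma 0.0892). The spike-in block called 2 of the 13, against 521 of all 11666 genes in either direction. These were Fos (adjusted p 0.0234), lower, and Etv5 (0.0214), higher, which was singled out after its value was seen. Junb, another AP-1 subunit, had -0.97 with overlapping groups (adjusted p 0.399). The ETS-family factors Ets2 and Ets1 had 0.45 and -0.47 (adjusted p 0.277 and 0.431).

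**Figure D5:**
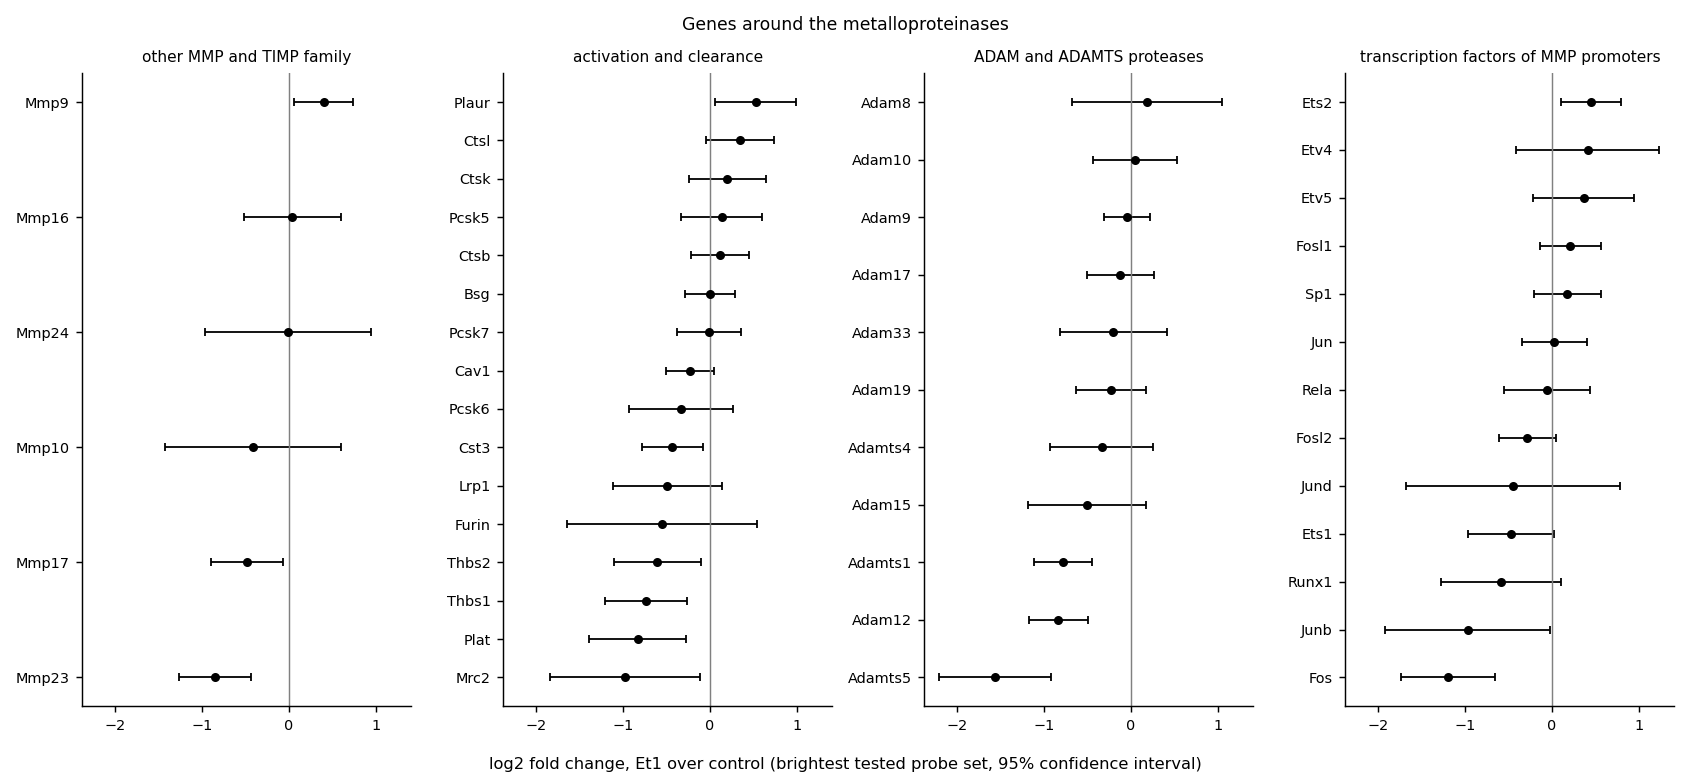
Log2 fold change of Et1 over control (horizontal axes) with 95% intervals from all 6 arrays for the tested genes of 4 lists, each by its brightest tested probe set. The lowest value is that of Adamts5 at -1.56, and Mmp9 at 0.40 is the highest of the remaining family.

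Markers of other cell types that a dermal culture could hold were summed over all annotated markers, each by its brightest probe set, whether above the filter or not. The sum was 365 to 440.1 on the Et1 arrays and 329.8 to 447 on the control arrays for keratinocytes (7 markers, 4 above the filter), and 430.0 to 517 on the Et1 arrays and 405 to 487 on the control arrays for leukocytes (8 markers, 5 above). For melanocytes (6 markers, 4 above) it was 260.2 to 296 with Et1 and 193 to 267 in control, and for endothelial cells (6 markers, 2 above) 119.6 to 208 with Et1 and 100.3 to 125 in control. The groups did not overlap for 3 further lists. For adipocytes (4 markers, 2 above) the sum was 425 to 667 with Et1 and 683 to 915 in control, for Schwann cells (3 markers, 3 above) 138 to 182 with Et1 and 228 to 259 in control, and for skeletal muscle (6 markers, 3 above) 2815 to 3075 with Et1 and 2362 to 2665 in control. The muscle sum was mostly Acta1, at 2756, 2776 and 2617 on the Et1 arrays and 2143, 2440 and 2448 on the control arrays. The groups overlapped for Ckm and Des, the other muscle markers above the filter, so the sum describes Acta1 rather than the list. All 3 Schwann cell markers had a lower Et1 mean, as Mmp2, Mmp14, Timp2 and Timp3 did and as 5171 of all 11666 genes did. Of the 3, 0 were called, against 0.411% of all genes. These markers were dim, with mean signals of 87.7 (Sox10), 63.1 (S100b) and 54.3 (Ngfr), and the groups overlapped for Ngfr. Of the adipocyte markers Fabp4, the adipocyte fatty acid carrier, fell, at 104, 121 and 96.8 on the Et1 arrays and 286, 329 and 259 on the control arrays (log2 fold change -1.44, adjusted p in limma 0.0258). Lpl, the other adipocyte marker above the filter, had 532, 287 and 447 with Et1 and 364, 339 and 640 in control. Its groups overlapped (log2 fold change -0.070, adjusted p in limma 0.946), so the adipocyte markers did not fall as a list. The fibroblast markers had a median log2 fold change of -0.71, with a lower mean for 7 of 8, against 5171 of all 11666 genes. They so stood lower on the Et1 arrays beside Mmp2, Mmp14, Timp2 and Timp3. Blocked on spike-in set, the fibroblast median was -0.46. The blocked fit called 3 of the 8 fibroblast markers, all lower with Et1, against 521 of all 11666 genes in either direction. These were Col3a1, Thy1 and Pdgfrb (limma adjusted p 0.0163, 0.0106 and 0.00684). In that fit 7 of the 8 were also lower in the high than in the low spike-in set, against 5297 of all 11666 genes. The part of these cell-type markers in the values of the proteases and inhibitors was not tested.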

How the data were processed

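The authors deposited linear intensity signals for each probe set, and the submitters' processing notes name MAS5, with version and target level not given in the sources used here. Per the labels' protocols, total RNA was extracted with a kit and labelled with biotin. From the signals, each of the 6 arrays was scaled to a common 2% trimmed mean, 4 zeros were replaced by the lowest positive signal on the same array, and values were log2-transformed without a pseudocount. The 64 control probe sets were left out, and 22519 of 45037 probe sets with a mean scaled signal at or above the median were tested with limma 3.58.1 in R 4.3.3 (lmFit, eBayes with an intensity trend, no block), Benjamini-Hochberg adjusted over all of them at 0.05. Genes came from the platform annotation, where 34945 probe sets had 1 symbol, 932 several and 9160 none. Signals carry no count of molecules, so precision rests on the number of arrays.

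Members and lists were chosen with earlier results of these data known. A gene of a list stands by the brightest of its tested probe sets, and named genes were the 4 with the smallest p of each list. For likeness, the 3 nearest genes were named for the member probe set with the smallest p, the brightest protease probe set and the brightest inhibitor probe set. Genes singled out beyond that rule were chosen after their values were seen. They were Etv5 and the cell-type markers named singly: Vim, Col3a1, Thy1, Pdgfrb, Fabp4, Lpl, Acta1, Ckm, Des, Sox10, S100b and Ngfr. The alternatives were other scalings, filters and offsets, no intensity trend, probe sets without shared-sequence suffixes, a replicate block, the spike-in set as a block (added after seeing the data) and leaving out each array in turn. On simulated signals over 22519 probe sets with the arrays' spread, limma called 7 of 50 probe sets changed by 2-fold, 37 of 50 changed by 4-fold, and 4 of 22319 unchanged.

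Replicate numbers are shared between the groups, and the design text says that cells were split into both cultures but does not tie the numbers to that split. The numbers were therefore not used as pairs. The deviations of same-numbered arrays correlated at -0.12, 0.44 and 0.45. Arrays numbered 2 share a spike-in set, as do those numbered 3, while those numbered 1 do not. Et1 replicate 2 and control replicate 1, also of the same set, correlated at 0.33, and Et1 replicate 1 and control replicate 3 at 0.26. These correlations cannot tell pairing from the difference between spike-in sets.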

Additional observations from a re-analysis of the deposited data

How the results depend on the processing

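Of 300 recomputed values of single probe sets 286 kept their sign and side of the threshold, 5 passed it, and 9 changed sign, all of Mmp3, Mmp11 or Timp1. Mmp3 became 0.072 without Et1 replicate 2 and 0.12 without control replicate 3 (leaving out each array, -0.19 to 0.12). Mmp11 became -0.060 with no scaling, -0.18 without Et1 replicate 2 and -0.15 without control replicate 3 (leaving out each array, -0.18 to 0.38). Timp1 became -0.030 with median centring, -0.20 with no scaling, and -0.074 or -0.011 when Et1 replicate 1 or 2 was left out (leaving out each array, -0.074 to 0.15). On unscaled signals the median of all probe sets was -0.18, so Timp1 was close to it. Members called were 0 of 19, and 0 on leaving out each array in turn, but 3 with the replicate block (against 2.52% of all tested probe sets) and 2 with the spike-in block. The replicate block, which is no established pairing, called Mmp14 1416572_at and 1440920_at and Timp3 1449335_at (limma adjusted p 0.0458, 0.0462 and 0.0458). The protease median of -0.042 was -0.094 with median centring, -0.26 with no scaling, 0.057 with no filter (Mmp13 then included), -0.22 with a filter at the 75th percentile, -0.15 with the spike-in block and -0.19 to -0.0070 on leaving out each array. The inhibitor median of -0.33 was -0.55 with no scaling and -0.37 to -0.26 on leaving out each array. Calls over all probe sets were 78 (28.2% higher with Et1), 44 with median centring (15.9% higher), 199 with no scaling (9.55% higher), 40 with no filter, 7 with no intensity trend, 567 with the replicate block and 868 with the spike-in block. Leaving out each array gave 4 to 229 calls: 10, 46 and 6 without Et1 replicates 1, 2 and 3, and 4, 4 and 229 without control replicates 1, 2 and 3. The cause was not tested. In the main fit all member differences were under 2-fold. Under some alternatives single values were larger, such as -1.12 with no scaling and -1.31 without control replicate 3 on Mmp14 1440920_at. In simulated data limma called 7 of 50 probe sets changed by 2-fold, so at 3 arrays a group a missed threshold does not show equal levels. The simulation drew each probe set independently and held no spike-in sets, so its share is not a detection rate for these members.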
